A study of Mus musculus with 18 samples.

Results

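A set of 10 regulators of hair follicle growth was followed in the whisker pad of the mouse after facial nerve transection: the ligands Shh, Wnt10b and Fgf5, the receptor Edar, the Wnt effector Lef1, and the transcription factors Hoxc13, Msx2, Dlx3, Foxn1 and Gata3. They were listed by gene name, with no threshold on a measured value, but with earlier results of these data known. They are 10 of the 35150 genes left after the transcripts of each gene were summed. RNA had been sequenced from 18 samples, which were biopsies of skin with the underlying muscle from both sides of the rostral whisker pad of 9 adult mice. On the right side 2 branches of the facial nerve, the buccal and the superior marginal one, were cut (denervated, called Lesioned in the labels). On the left side of the same mouse the skin was opened and closed over an uncut nerve (sham, called Intact). Tissue was taken 1, 3 or 7 days later from 3 mice a day. No untouched animals were analysed, so a response to the skin incision is shared by both groups. The lesion was always on the right, so that lesion and side of the face cannot be told apart. Both sexes were used, and the sources used here tie no strain to these mice. The study asked how the transcriptome of paralyzed whisker pad tissue changes with time.

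The whisker pad is densely set with large vibrissa follicles among smaller pelage follicles, and the facial nerve drives the muscles that move the vibrissae. At the base of a growing follicle, matrix cells next to the dermal papilla divide and then turn into the layers of the hair shaft and the inner root sheath. Wnt, hedgehog and ectodysplasin signals act on follicle epithelium, homeobox and forkhead factors set the program of the differentiating matrix, and Fgf5 is known for ending the growth phase. A biopsy holds follicles in different numbers and phases next to epidermis, glands, muscle and blood cells. In such bulk RNA, fewer cells of a type and less RNA per cell cannot be told apart.

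Levels are TPM, a transcript abundance corrected for length and depth that the authors had normalized between samples, and each gene's level is the sum over its transcripts. Depth was estimated at 10300000 to 32000000 reads a sample, with a median of 14200000. By the same estimate Gata3 rested on 1361 to 7542 reads in a sample, Dlx3 on 530 to 5568, but Edar on only 9 to 106, Shh on 9 to 185 and Fgf5 on 14 to 121, so that these last 3 genes carry a large counting error. Products of the follicle were plentiful in every group: the 18 measured genes of the hair shaft summed to between 1056 and 10236 TPM in a sample and the 11 genes of the inner root sheath to between 507 and 3361 TPM. Skeletal muscle genes varied most between samples of day 1, where their sum lay between 5319 and 26449 TPM on the sham side.

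On the sham side the 10 genes fell into a high group and a low group. Gata3, a zinc finger factor of the inner root sheath and the epidermis, was highest with 64.7 ± 11.4 TPM (SD, n = 9 mice). Dlx3, a homeobox factor of the hair matrix, followed with 47.1 ± 14.7 TPM, and Hoxc13, a homeobox factor needed for hair keratin expression, with 30.2 ± 10.1 TPM. Msx2, another homeobox factor of the matrix, stood at 23.8 ± 8.75 TPM. These 4 steps of the order held in 8 or 9 of the 9 mice, with exact sign-flip permutation p of 0.012 for Gata3 over Dlx3 and 0.0039 for each of Dlx3 over Hoxc13, Hoxc13 over Msx2, and Msx2 over Lef1. With 9 pairs 0.0039 is the smallest p that this two-sided test can give, and these p are not adjusted over the 9 steps. The order itself was taken from the means of the same sham samples. The p of its steps, here and in the next paragraph, therefore describe the order and are no independent test of it.

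Lef1, the DNA-binding partner of beta-catenin in Wnt signaling, had 15.1 ± 5.77 TPM on the sham side, and Foxn1, the forkhead factor lost in nude mice, 14.2 ± 5.80 TPM. Lef1 was above Foxn1 in 5 of 9 mice, a difference within their spread (exact sign-flip permutation p = 0.68). Wnt10b, a Wnt ligand of the follicle epithelium, had 8.74 ± 2.98 TPM and was below Foxn1 in 8 of 9 mice. The low group held Shh, the hedgehog ligand of the matrix, with 1.72 ± 0.777 TPM, Edar, the receptor of ectodysplasin A1, with 1.23 ± 0.543 TPM, and Fgf5 with 1.17 ± 0.605 TPM. Shh was below Wnt10b in 9 of 9 mice, and Shh was above Edar in 8 of 9 mice, with a mean difference within the spread (exact sign-flip permutation p = 0.35). The exception was mouse 1 of day 7. Without it the other 8 mice share the order by construction, so they were not taken as a test. With any other mouse left out, the exact sign-flip permutation p ran from 0.38 to 0.60. Edar was above Fgf5 in 4 of 9 mice (exact sign-flip permutation p = 0.79).

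**Figure D1:**
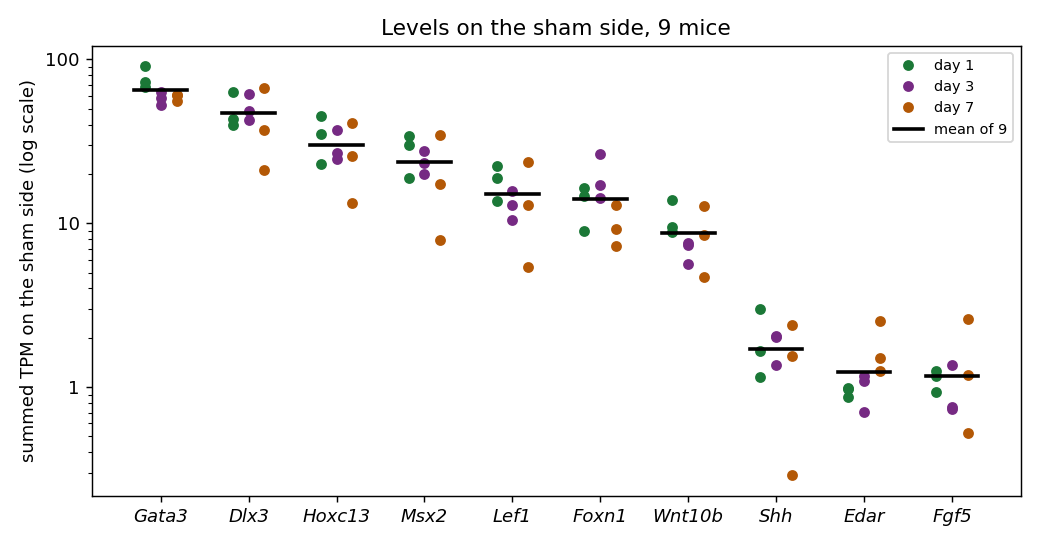
Summed TPM of the 10 genes on the sham side, on a log axis, with 1 point per mouse colored by day and a black line at the mean of 9 mice. Gata3 at 64.7 TPM and Dlx3 at 47.1 TPM lead, and Shh, Edar and Fgf5 lie near 1 TPM with overlapping values.

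Sham levels differed widely from mouse to mouse. The highest sham sample was 10.4 times the lowest for Shh, 4.37 times for Msx2, 4.35 times for Lef1, and 1.73 times for Gata3, which was the steadiest of the 10. The sham side of mouse 1 of day 7 had the lowest level of Shh (0.290 TPM), Lef1 (5.43 TPM), Hoxc13 (13.3 TPM), Msx2 (7.93 TPM), Foxn1 (7.22 TPM), Wnt10b (4.72 TPM), Dlx3 (21.2 TPM) and Fgf5 (0.522 TPM) among all 9 sham samples, and the highest level of Edar (2.55 TPM). That library therefore weighs on each day 7 comparison below. Across the 3 days, 0 of 10 genes differed on the sham side by limma's moderated F test with Benjamini-Hochberg adjustment, where 0.0613% of all genes tested did. At an unadjusted p under 0.05 there were 2, Gata3 (adjusted p = 0.30) and Foxn1 (adjusted p = 0.34), beside 14.3% of all genes tested.

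Each gene was compared between denervated and sham tissue at each day with limma on log2(TPM + 0.5), and called if its Benjamini-Hochberg adjusted p over all genes tested was under 0.05. A gene entered a comparison if it had at least 1 TPM in at least 47% of its samples, which Edar did not at days 1 and 3 or over all days. No member was called at day 1 (0 of 9 tested), day 3 (0 of 9), day 7 (0 of 10) or over all days (0 of 9). Of all genes tested, 0.0% were called at day 1 (634 of 14776 at an unadjusted p under 0.05), 1.45% at day 3, 1.53% at day 7, and 3.1% over all days. At an unadjusted p under 0.05 the members numbered 0 at day 1, 5 at day 3, 0 at day 7, and 0 over all days, beside 4.29%, 14.7%, 12.3% and 14.7% of all genes tested. With the mouse as a block 3 members had such a p at day 3, beside 18.7% of all genes.

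Day 3 held the most members whose groups did not overlap. Dlx3 measured 42.5, 61.3 and 48.4 TPM in the sham samples of mice 1, 2 and 3, and 31.9, 25.0 and 31.6 TPM in their denervated samples. All 3 denervated values were below all 3 sham values. The log2 difference was -0.76 ± 0.17 (SE), a ratio of 0.589, and did not pass in limma (adjusted p = 0.10).

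Foxn1 measured 17.1, 26.6 and 14.3 TPM on the sham side of these mice and 10.6, 7.92 and 10.5 TPM on the denervated side, again without overlap. Its log2 difference of -0.93 ± 0.24 (SE) was the largest of the 9 genes tested at day 3 (limma, adjusted p = 0.15). Msx2 measured 20.1, 27.6 and 23.3 TPM against 15.6, 9.19 and 15.1 TPM, without overlap. Its log2 difference was -0.83 ± 0.23 (SE; limma, adjusted p = 0.17). In all 3 genes mouse 2 had both the highest sham and the lowest denervated value of the day.

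Hoxc13 measured 24.6, 37.0 and 26.9 TPM in sham tissue of day 3 and 24.2, 15.4 and 20.3 TPM in denervated tissue. The groups did not overlap, but the highest denervated and the lowest sham value, both of mouse 1, were nearly the same. Lef1 measured 10.4, 15.7 and 12.9 TPM against 9.24, 7.42 and 10.7 TPM. It was lower on the denervated side of 3 of 3 mice, with groups that overlapped. The adjusted p were 0.31 for both (limma), and their log2 differences were -0.55 and -0.49.

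Of the 9 members tested at day 3, 4 (Hoxc13, Msx2, Foxn1 and Dlx3) had all 3 denervated samples below all 3 sham samples, beside 9.82% of all genes tested. The same count was 0 of 9 at day 1, beside 3.95% of all genes, and 1 of 10 at day 7 (Edar), beside 7.06%. Edar was not tested at days 1 and 3 and is not in those counts, but its groups did not overlap there either. At day 7 Edar was at 1 TPM or more in the 3 sham samples and under it in the 3 denervated ones, so that it entered through the sham group alone and its lack of overlap at that day was fixed by the minimum. With 3 samples against 3 an exact permutation test cannot go below p = 0.10, so these counts describe the samples. The 4 genes are not separate observations, since their levels ran together over the samples (below).

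**Figure D2:**
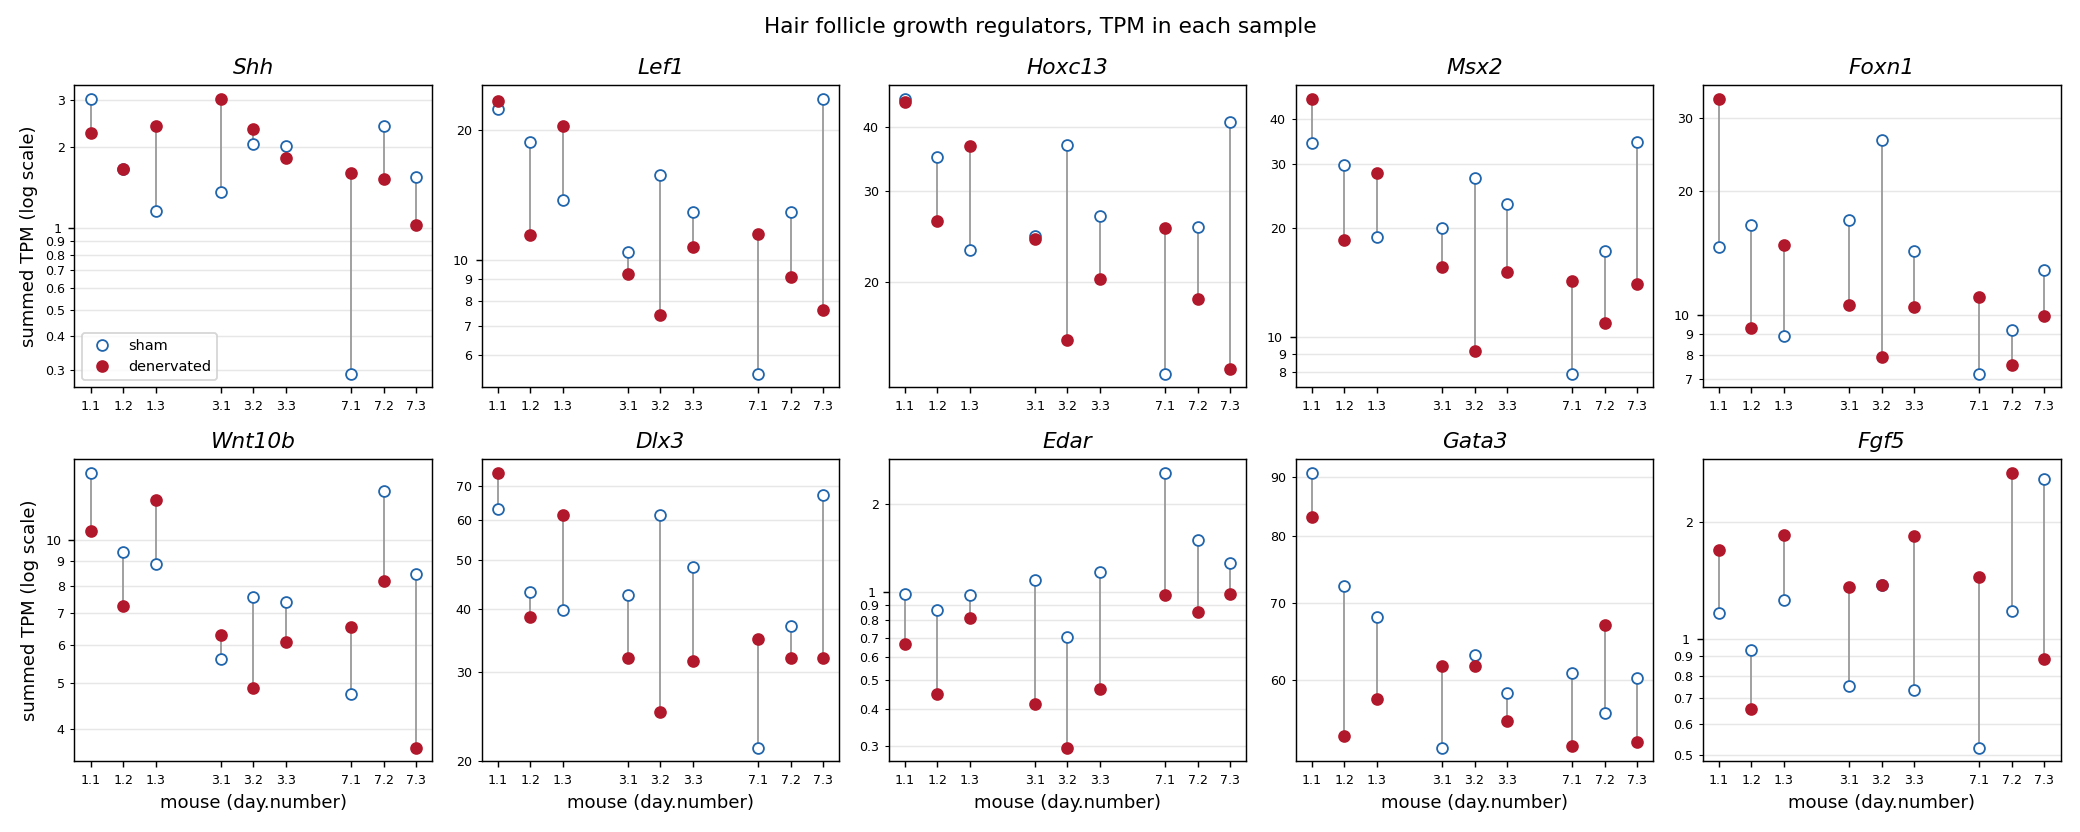
Summed TPM of each gene in all 18 samples on log axes, with open blue points for the sham side, filled red points for the denervated side and a grey line joining the sides of a mouse. At day 3 the filled points of Dlx3, Foxn1, Msx2, Hoxc13 and Edar lie below every open point of that day, and for Edar the filled point lies below its open point in all 9 mice.

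At day 1 these factors had no direction common to the 3 mice. Dlx3 measured 62.9, 43.2 and 39.8 TPM in sham tissue and 74.3, 38.4 and 61.2 TPM in denervated tissue. Foxn1 measured 14.6, 16.5 and 8.94 TPM against 33.5, 9.33 and 14.8 TPM, with the highest value of all 18 samples on the denervated side of mouse 1. Both were higher on the denervated side of mice 1 and 3 and lower in mouse 2. Their log2 differences at day 1 were 0.23 ± 0.29 (SE) and 0.36 ± 0.47 (SE), within the spread (limma, adjusted p = 0.999 for both).

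At day 7 the mice moved in opposite directions. Msx2 measured 7.93, 17.3 and 34.6 TPM in the sham samples of mice 1, 2 and 3 and 14.3, 10.9 and 14.02 TPM in the denervated ones. Hoxc13 measured 13.3, 25.6 and 41.0 TPM against 25.5, 18.5 and 13.5 TPM, and Lef1 5.43, 12.9 and 23.6 TPM against 11.5, 9.10 and 7.63 TPM. In each of these 3 genes the denervated side was higher in mouse 1 and lower in mice 2 and 3, and the denervated samples spanned a narrower range than the sham ones. Without mouse 1, whose sham library is described above, the log2 differences of Lef1, Hoxc13, Msx2 and Dlx3 at day 7 were -1.03, -1.01, -0.96 and -0.64. Without mouse 3 the day 7 log2 differences of Lef1, Hoxc13, Msx2 and Dlx3 turned positive, at 0.27, 0.23, 0.09 and 0.24.

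The difference between days was tested as an interaction. Between day 3 and day 1 the change of Foxn1 was lower by -1.29 ± 0.53 on the log2 scale (SE; limma, adjusted p = 0.49) and that of Dlx3 by -0.99 ± 0.46 (adjusted p = 0.54), so neither passed. In all, 0 of 9 members passed between day 3 and day 1 (2 at an unadjusted p under 0.05), 0 of 9 between day 7 and day 1, and 0 of 9 between day 7 and day 3 (0 at an unadjusted p under 0.05 in each of the last 2). The shares of all genes called were 0.122%, 0.163% and 0.0% in the same order, and 9.22%, 7.14% and 6.86% of all genes (the last 1013 of 14757) had an unadjusted p under 0.05.

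Edar was the gene with the same direction in every mouse. At day 1 it measured 0.984, 0.870 and 0.979 TPM in sham tissue of mice 1, 2 and 3 and 0.666, 0.449 and 0.813 TPM in denervated tissue. At day 3 it measured 1.10, 0.703 and 1.17 TPM against 0.417, 0.295 and 0.467 TPM. At day 7 it measured 2.55, 1.50 and 1.25 TPM against 0.978, 0.852 and 0.985 TPM. The denervated side was lower in 9 of 9 mice, and at each day the 3 denervated samples were below the 3 sham samples. Of the genes at the 1 TPM minimum, 3.95%, 9.82% and 7.06% had such groups at days 1, 3 and 7. Edar met that minimum at day 7 alone, and there only through its sham samples.

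The mean of the 9 sham samples was 1.23 ± 0.543 TPM and that of the 9 denervated samples 0.658 ± 0.260 TPM. The within-mouse log2 difference of Edar was -0.57 ± 0.28 (SD, n = 9), with an exact two-sided sign-flip permutation p of 0.0039, the smallest that 9 pairs allow. Over all genes with a TPM above 0 in at least 47% of samples, the Benjamini-Hochberg adjusted value was 0.15, and 1.08% of these genes were lower in 9 of 9 mice. Of the 14757 genes that met the 1 TPM minimum, which Edar did not, 0.0% passed the adjusted sign-flip permutation test. Among them 2398 had an unadjusted p under 0.05, and the smallest adjusted value was 0.12. The pseudocount of 0.5 is close to the level of Edar, so that its log2 differences understate the change.

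Edar was below the minimum for the fit over all days. When the minimum was lowered to a TPM above 0 it was the 1 member called over all days, with a log2 difference of -0.57 ± 0.11 (SE; limma, adjusted p = 0.014), where 0.831% of all genes were called lower. The adjusted p was 0.022 with the mouse as a block. It ran from 0.014 to 0.056 when 1 mouse was left out, and the call was lost without mouse 1 of day 3 (0.056) or mouse 3 of day 3 (0.055). Without mouse 1 of day 7 it was 0.034. When samples were rescaled to the basal keratins Krt5 and Krt14, the log2 difference was -0.49 and the adjusted p 0.091. At day 7 alone, where Edar passed the minimum only through its sham samples, the log2 difference was -0.62 ± 0.28 (SE; limma, adjusted p = 0.44).

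The other 2 members with a low level went against Edar or had no direction. Fgf5 was higher on the denervated side in 7 of 9 mice, with a mean log2 difference of 0.30 ± 0.70 (SD, n = 9; exact sign-flip permutation p = 0.22). At day 3 it measured 0.755, 1.37 and 0.735 TPM in sham tissue against 1.36, 1.38 and 1.85 TPM. It was higher in 3 of 3 mice of that day, although in mouse 2 by very little and with groups that overlapped. Shh measured 1.36, 2.05 and 2.01 TPM at day 3 against 3.02, 2.33 and 1.83 TPM, and over all 9 mice it was lower in 4 and higher in 5 (log2 difference 0.21 ± 0.68, SD; exact sign-flip permutation p = 0.37).

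Gata3 had the narrowest spread of within-mouse differences among the 10 genes. At day 1 it measured 90.7, 72.3 and 68.0 TPM in sham tissue and 83.03, 53.7 and 57.8 TPM in denervated tissue, which was lower in 3 of 3 mice with groups that overlapped. Its mean log2 difference over 9 mice was -0.09 ± 0.22 (SD; exact sign-flip permutation p = 0.26), and it turned to 0.02 when samples were rescaled to Krt5 and Krt14. T cells also express Gata3, and the 11 T cell genes summed to between 14.98 and 39.0 TPM in a sample. At day 1 the sum ran from 24.7 to 33.9 TPM on the denervated side and from 27.0 to 39.0 TPM on the sham side. At day 3 it ran from 14.98 to 26.5 TPM and from 25.7 to 34.1 TPM in the same order. The part of T cells in the Gata3 values was not tested. Wnt10b was lower in 6 of 9 mice, with a log2 difference of -0.26 ± 0.51 (SD, n = 9; exact sign-flip permutation p = 0.17). At day 3 it measured 5.61, 7.56 and 7.39 TPM against 6.30, 4.87 and 6.09 TPM.

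**Figure D3:**
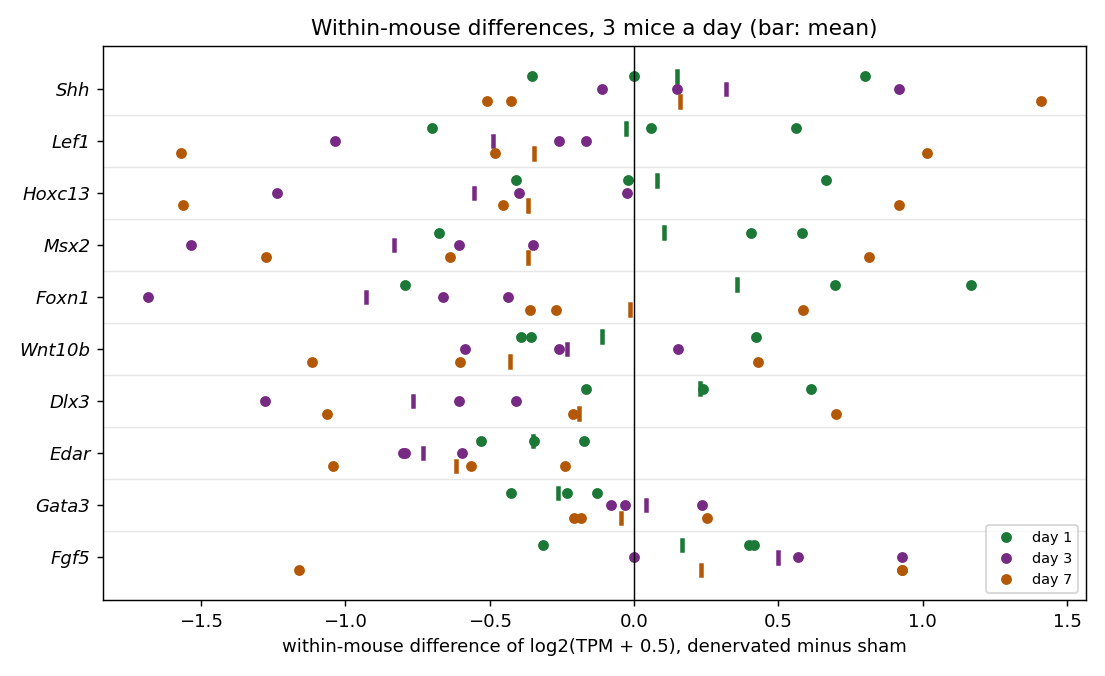
Within-mouse difference of log2(TPM + 0.5), denervated minus sham, with 1 point per mouse, colored by day, and a bar at the mean of each day's 3 mice. The 9 points of Edar all lie below 0, the day 3 points of Lef1, Hoxc13, Msx2, Foxn1 and Dlx3 lie below 0, and their day 7 points spread to both sides.

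Within a mouse the members often had the same sign. In mouse 3 of day 7, 10 of 10 were lower on the denervated side, with a median log2 difference of -1.09. In mouse 1 of day 7, 8 of 10 were higher, with a median of 0.76. The median over all genes in these mice was 0.03 and 0.07. At day 3 the members lower on the denervated side numbered 6, 8 and 9 in mice 1, 2 and 3, and at day 1 they numbered 5, 9 and 2.

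The levels of the matrix factors ran together over the 18 samples. Pearson's r of log2(TPM + 0.5) was 0.961 between Msx2 and Dlx3, 0.956 between Lef1 and Hoxc13, and 0.949 between Lef1 and Msx2. Edar stood apart, with r between -0.13 and 0.07 to Lef1, Hoxc13, Msx2, Foxn1, Wnt10b, Dlx3 and Gata3, -0.30 to Fgf5, and -0.62 to Shh. These are descriptions: the 18 points share mice and days, and the low genes carry counting error.

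Among all genes tested, the most like Msx2 after Dlx3 was Krt28, a keratin of the inner root sheath (r = 0.958, 18 samples), which was also second for Dlx3 (0.955). Foxn1 was most like Hephl1 (0.944) and Wnt10b was most like Jag1, a Notch ligand (0.931). Hoxc13 was most like Lef1 and then Rassf6 (0.950). For the low genes the nearest neighbors were further away, with Ssb for Shh (0.841), Tmem94 for Edar (0.870) and Fbxo7 for Fgf5 (0.693), and Gata3 was nearest to Cck (0.790).

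Products of the differentiating follicle were compared from gene lists, which were chosen with earlier results of these data known. At day 3, 18 of 18 measured hair shaft genes had a negative log2 difference, with a median of -0.98, and 11 of 11 inner root sheath genes did, with a median of -1.09. Over all genes tested that day the median was -0.01, and 47.3% had a positive difference. Some lists of other cell types were also negative throughout at day 3 (below). Genes of a list were measured in the same 3 mice a day, so counts within a list, here and below, are not separate observations. No hair shaft or inner root sheath gene was called by limma with Benjamini-Hochberg adjustment at day 1, 3 or 7. At an unadjusted p under 0.05 there were 12 of 18 and 7 of 11 at day 3, 1 of 18 and 1 of 11 at day 1, and 1 of 18 and 0 of 11 at day 7. The shares of all genes with such a p were 14.7%, 4.29% and 12.3% at these days. At day 1 the median was 0.46 over the shaft genes, of which 2 of 18 had a negative difference, and 0.45 over the sheath genes, of which 0 of 11 did. At day 7 the medians were -0.16 (15 of 18 negative) and 0.18 (4 of 11 negative). The calcium-binding S100a3 of the hair cuticle had a log2 difference of -0.60 ± 0.25 (SE, adjusted p = 0.34) at day 3 and the shaft keratin Krt83 -1.04 ± 0.35 (adjusted p = 0.24). The sheath keratins Krt71 and Krt25 had -1.27 ± 0.54 (adjusted p = 0.35) and -1.20 ± 0.52 (adjusted p = 0.36).

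By mouse, the summed hair shaft genes had log2 differences of 1.65, -1.01 and 0.82 at day 1, -0.46, -1.63 and -0.66 at day 3, and 0.75, -1.48 and -0.20 at day 7. Each sign was that of the median over the 10 members in the same mouse, but the sizes often differed. In mouse 1 of day 1 that median was only 0.02, with 5 members lower and 5 higher, beside 0.03 over all genes. In mouse 3 of day 7 it was -1.09, where the hair shaft sum had -0.20. For the inner root sheath the values were 1.23, -0.37 and 0.43 at day 1, -0.65, -2.73 and -0.26 at day 3, and 1.42, 0.33 and -0.92 at day 7. In mouse 2 of day 7 this sum was higher on the denervated side while the member median was -0.47. At day 3 mouse 2, which had the lowest differences of Dlx3, Foxn1 and Msx2 that day, also had the lowest log2 difference of both the hair shaft and the inner root sheath sum. The part of follicle content or hair cycle phase in the members' differences was not tested.

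**Figure D4:**
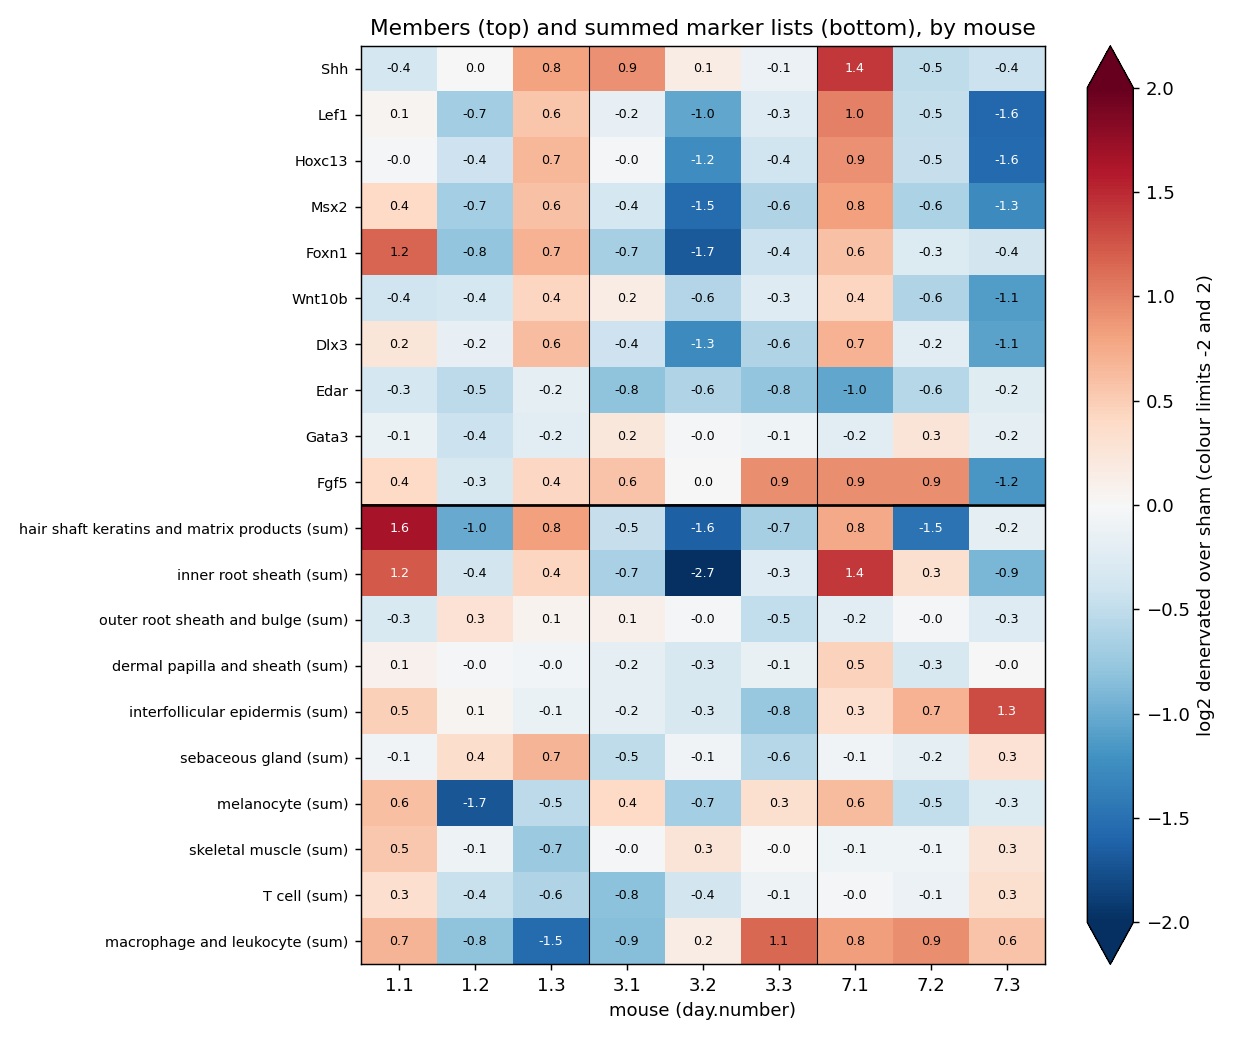
Log2 of denervated over sham in each of 9 mice, for the 10 members (top, log2(TPM + 0.5)) and for the summed TPM of 10 marker lists (bottom), with red for higher and blue for lower on the denervated side. Hair shaft and inner root sheath sums are lower in 3 of 3 mice of day 3 and mixed at days 1 and 7, and Edar is blue in all 9 mice.

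Other cell types were checked with marker lists, chosen with the same knowledge. At day 3 the median log2 difference was -0.05 for 13 outer root sheath and bulge genes, -0.18 for 11 tested dermal papilla and sheath genes, -0.37 for 10 interfollicular epidermis genes, -0.49 for 10 sebaceous gland genes, -0.03 for 7 tested melanocyte genes, 0.05 for 12 skeletal muscle genes, -0.36 for 7 tested T cell genes, and -0.07 for 8 macrophage and leukocyte genes. The difference was negative in 10 of 10 interfollicular epidermis, 10 of 10 sebaceous gland and 7 of 7 T cell genes. It was negative in 9 of 13 outer root sheath and bulge and 8 of 11 dermal papilla and sheath genes. For melanocyte, skeletal muscle, and macrophage and leukocyte genes the counts were 4 of 7, 6 of 12 and 6 of 8. Krt5 and Krt14, which mark basal cells of epidermis and outer root sheath, had day 3 differences of -0.05 ± 0.20 and -0.31 ± 0.23 (SE). Among these lists the genes called were Actn3, a fast-fiber protein of the Z-disc, higher at days 3 and 7, and Ckm, muscle creatine kinase, lower at day 7. The blocked fit by mouse also called the calcium-binding Pvalb, the cornified layer gene Flg2 and the lysozyme gene Lyz2 at day 7. Their log2 differences that day were -0.68, 1.40 and 0.84. The day 7 medians of their lists were 0.30 for skeletal muscle (4 of 12 negative), 0.90 for interfollicular epidermis (1 of 10) and 0.56 for macrophages and leukocytes (1 of 8). The part of these cell types in the members' differences was not tested.

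Around the members, genes were called in the ectodysplasin and hedgehog lists. Eda2r, the receptor of ectodysplasin A2 and thus the counterpart of Edar, rose. It had 1.83 ± 0.668 TPM in sham and 8.10 ± 1.05 TPM in denervated tissue at day 3, and 2.22 ± 0.485 against 14.998 ± 1.38 TPM at day 7 (SD, n = 3). The log2 differences were 1.92 ± 0.24 and 2.52 ± 0.17 (SE; limma, adjusted p = 0.019 and 0.0024), and Eda2r was higher in 9 of 9 mice. It was the 1 of 5 genes called in its list at both days, beside 1.45% of all genes at day 3 and 1.53% at day 7. The ligand gene Eda (-0.08 ± 0.17 at day 3) and the adapter gene Edaradd (-0.45 ± 0.18, limma, adjusted p = 0.33) did not pass. Which cells of the biopsy carried the rise of Eda2r was not tested.

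In the hedgehog list 1 of 14 tested genes was called at day 7, beside 1.53% of all genes. Cdon, a cell surface co-receptor that binds hedgehog ligands and is also known from muscle, had 6.73 ± 1.68 TPM in sham and 14.6 ± 0.657 TPM in denervated tissue (SD, n = 3; log2 difference 1.08 ± 0.18, SE; limma, adjusted p = 0.042). It was also called over all days (limma, adjusted p = 0.048), though there not with the mouse as a block.

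By limma no gene was called at day 1, 3 or 7 in the Wnt list (34 to 35 tested), the BMP list (17 to 18), the FGF list (16), the Notch list (13) or the list of 23 other hair transcription factors (20 to 22 tested). With the mouse as a block Porcn, which modifies Wnt ligands, was called at day 7. At an unadjusted p under 0.05 there were 5 Wnt, 3 BMP, 3 FGF and 2 Notch genes and 5 other transcription factors at day 3, of 35, 18, 16, 13 and 20 tested, beside 14.7% of all genes. At day 3, 31 of 35 Wnt genes and 19 of 20 other hair transcription factors had a negative log2 difference, with medians of -0.20 and -0.29, beside -0.01 over all genes tested. The most abundant of them, beta-catenin (Ctnnb1) and Trp63, had differences of -0.08 ± 0.10 and 0.00 ± 0.13 (SE).

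Most members were measured through 1 dominant transcript. Shh, Hoxc13, Foxn1, Dlx3 and Edar each had 1 transcript in the deposited table. The main transcript made up 99.2% of Fgf5, 99.0% of Msx2, 94.0% of Gata3, 87.1% of Wnt10b and 86.5% of Lef1, so that for Lef1 and Wnt10b the sum includes several isoforms. In build GRCm38 the genes lie at chr5:28456815-28467256 (Shh), chr15:98770712-98778150 (Wnt10b), chr5:98254184-98277030 (Fgf5) and chr3:131110471-131224356 (Lef1). The factors Hoxc13, Msx2, Dlx3 and Gata3 lie at chr15:102921103-102928814, chr13:53466884-53473074, chr11:95120119-95125296 and chr2:9857078-9890034.

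Sequence upstream of the start was available for 7 of the 10 members in the RefSeq table of build GRCm38.p6. Positions count from the RefSeq start, which for Edar and Foxn1 lies outside the GENCODE M21 gene span given below. The windows of Edar and Foxn1 are shown because Edar was lower in every mouse and Foxn1 had the largest difference at day 3. Edar lies on chromosome 10 (chr10:58600789-58675654, minus strand) and its window, 250 bases before the start, spans chr10:58675697-58675946. Foxn1 lies on chromosome 11 (chr11:78357577-78386558, minus strand) with a window at chr11:78386609-78386858. Both are printed 5′ to 3′ on the gene's strand, with motif matches in capitals.
Edar: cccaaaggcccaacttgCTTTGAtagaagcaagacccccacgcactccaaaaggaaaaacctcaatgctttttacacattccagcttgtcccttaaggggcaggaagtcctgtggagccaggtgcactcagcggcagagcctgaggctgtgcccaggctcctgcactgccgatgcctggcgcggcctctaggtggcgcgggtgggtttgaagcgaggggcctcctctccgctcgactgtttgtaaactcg
Foxn1: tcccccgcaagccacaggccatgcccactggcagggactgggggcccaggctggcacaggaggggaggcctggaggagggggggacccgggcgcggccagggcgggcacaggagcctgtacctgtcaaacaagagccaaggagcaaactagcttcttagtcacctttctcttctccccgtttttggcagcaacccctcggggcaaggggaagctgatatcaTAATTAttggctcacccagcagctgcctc
On both strands the windows were searched for a core motif of LEF1 and TCF factors, with the letters CTTTGA. Edar held it at position -233 from the start, as 13.8% of 32851 such windows do on either strand. The homeodomain core of DLX and MSX factors, with the letters TAATTA, stood at position -29 of Foxn1, as in 4.84% of all windows. The core of GATA factors, spelled AGATAA, was in neither window and occurs in 9.99% of all. The TATA box letters TATAAA were in neither window and occur in 12.4%. A match describes letters and was not tested as a binding site.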

How the data were processed

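Denervated and sham whisker pad of 9 mice was sequenced in 18 samples. Per the labels and methods, the authors base-called with bcl2fastq 2.17.1.14, removed duplicates, trimmed, pseudoaligned reads to mouse cDNA with kallisto 0.43.1 and normalized in sleuth. The deposited signal values are TPM normalized between samples (sums 833186 to 1143839). The tests had been planned for plain TPM and were kept. The 113194 transcripts were matched to GENCODE M21 (98.46%) and summed by gene.

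Genes were compared with limma 3.58.1 (R 4.3.3), a trend of variance with mean, and Benjamini-Hochberg adjusted p (threshold 0.05), on log2(TPM + 0.5). Each day's 6 samples were fitted alone, and over all days with a term for the day. Python 3.11.15 (scipy 1.17.1, numpy 2.4.6, pandas 2.3.3; figures with matplotlib 3.10.9) gave exact sign-flip permutation tests over 9 pairs. The sides of a mouse come from the same animal, and their deviations correlated in every mouse (r 0.163 to 0.568), so a fit with the mouse as a replicate block was the paired alternative. Both tests were tried on simulated data. Depth was estimated from low values of long transcripts, where 77.2% to 86.2% per sample lay within 0.1 of a whole read (20% if spread evenly), and covers counting error only.

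The members and lists were chosen with earlier results of these data known. All 10 members are named whatever their values. From a list, genes that passed are named. Where none passed, at most the 2 most abundant genes are named, and for several lists none is. Of the 3 genes with the highest r to each member, 1 or more is given. Eda, Edaradd and the genes named with the block (Porcn, Pvalb, Flg2, Lyz2) were named after their values were seen. The day 7 table columns were matched to samples by their sequencing index, since their mouse numbers differ from the labels. The hair shaft list has 1 gene, Krt85, not analysed here. Alternatives covered the pseudocount, filter, scaling, trend, main transcript, left-out mice and block.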

Additional observations from a re-analysis of the deposited data

How the results depend on the processing

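Of 583 recomputed member values 559 kept their direction and side of the threshold, and 24 reversed, none of them a called value. With a TPM above 0 as the minimum, 1 member (Edar) was called over all days in place of 0. With that minimum and the mouse as a replicate block, which was chosen after seeing the data, the count was also 1, and with 1 mouse left out it was 0 to 1. The paired fit with the mouse as a replicate block at the 1 TPM minimum called 0 members in each comparison, as the unpaired fit did, and its smallest adjusted p at day 3 was 0.14 (Dlx3, limma). With 1 mouse left out, these uncalled log2 differences changed sign. At day 1 they ran from -0.18 to 0.40 for Shh, -0.32 to 0.31 for Lef1, -0.21 to 0.32 for Hoxc13, -0.13 to 0.49 for Msx2, -0.048 to 0.93 for Foxn1 and -0.38 to 0.032 for Wnt10b. At day 3 they ran from -0.055 to 0.10 for Gata3. At day 7 they ran from -0.47 to 0.49 for Shh, -1.03 to 0.27 for Lef1, -1.01 to 0.23 for Hoxc13, -0.96 to 0.087 for Msx2, -0.31 to 0.16 for Foxn1, -0.64 to 0.24 for Dlx3, -0.20 to 0.035 for Gata3 and -0.12 to 0.93 for Fgf5. For the order of sham levels, an alternative chosen after seeing the data, leaving out 1 mouse gave log2 differences of -0.014 to 0.18 for Lef1 over Foxn1 and -0.11 to 0.19 for Edar over Fgf5. Gata3 reversed at day 3 with equal sums of TPM (-0.018). Rescaling to Krt5 and Krt14 moved the median of all genes to 0.15 at day 3, 0.17 at day 7 and 0.11 over all days, and reversed Foxn1 at day 7 (0.12) and Gata3 at day 7 (0.095) and over all days (0.022). The cause was not tested. Depth limits Edar (9 to 106 reads a sample), Shh (9 to 185) and Fgf5 (14 to 121) most, and 3 mice a day limit every single day.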
